A study of Mus musculus with 4 samples.

Results

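The mouse testis was compared at 14 days postpartum (dpp) with the testis at 9 dpp, both taken without culture. All cell barcodes were used in which 500 or more genes were detected and mitochondrial genes made up no more than 20% of the unique molecular identifiers (UMIs, which count single captured transcripts). That rule kept 5293 of 5465 deposited barcodes at 9 dpp and 6338 of 6527 at 14 dpp, out of 23670 kept barcodes in the 4 libraries of the study. Per the labels, the mice of all 4 libraries are C57BL/6 and carry an Acr-Gfp transgene, in which the promoter of the sperm protease acrosin drives a green fluorescent protein. The other libraries came from 7 dpp testis fragments kept in organ culture for 2 or 7 days, and they enter only the last comparison. The testes were dissociated with collagenase I and trypsin-EDTA, and the cells were run on a droplet kit that reads the 3′ ends of polyadenylated RNA. The labels do not say how many animals gave each library or whether they were pooled. One label sentence speaks of female gonads, whereas Y-linked Eif2s3y stood at 117 CPM at 9 dpp and 130 CPM at 14 dpp (CPM, UMIs scaled so that each library sums to 1e+06), and Xist at 1.24 and 1.91 CPM.

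In the mouse, the first wave of spermatogenesis moves through the juvenile testis almost in step. Spermatogonia differentiate under retinoic acid, enter meiosis as preleptotene cells, pair their chromosomes in leptotene and zygotene, and reach pachytene, the long stage in which recombination is completed and many genes of the future sperm are first transcribed. Around them, Sertoli cells stop dividing and form the blood-testis barrier, and the fetal Leydig cells, which make steroid hormones, are gradually replaced by the adult kind. The comparison asks which genes of the whole tissue differ between these ages, with no gene list set beforehand.

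The 9 dpp library held 60474587 UMIs in the kept cells and the 14 dpp library 58069236. The medians per cell were 8760 and 6542.5 UMIs, 3164 and 2638.5 genes, and 5.26% and 5.32% mitochondrial UMIs. The libraries shared 34 barcodes. Each age is 1 library, so no difference here has a replicate check and no test between ages was run. Intervals are at 95% and cover counting error alone, from exact Poisson limits for a CPM and exact binomial limits for a ratio. A count of 0 allows up to 0.0496 CPM at 9 dpp and 0.0517 CPM at 14 dpp (3 counts). A log2 ratio is that of CPM plus 1, 14 dpp over 9 dpp, which understates the difference of rarely counted genes. A gene is called higher or lower when this ratio is at least 1 or at most −1, a 2-fold difference.

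Cells were also clustered and named from marker genes, to place the changes in the tissue. Germ-like cells numbered 2313 (43.7% of kept cells) at 9 dpp and 3284 (51.8%) in the older library. The Sertoli-like class held 888 (16.8%) and 1081 (17.1%), and the stromal- or myoid-like class 1512 (28.6%) and 1078 (17.0%). Leydig-like cells numbered 102 and 154, pericyte-like cells 55 and 84, macrophage-like cells 31 and 60, and endothelial-like cells 21 and 46. Within the germ-like cells, those resembling undifferentiated spermatogonia went from 638 to 462, differentiating spermatogonia from 1387 to 1512, and early meiotic prophase from 288 to 1246. A cluster with pachytene markers held 0 cells at 9 dpp and 64 at 14 dpp. These 64 cells were 1.01% of the cells and, with a median of 30775.5 UMIs each, 3.84% of the UMIs. Another cluster of 180 cells, found only at 14 dpp and counted in early prophase, also had pachytene markers. They summed to 5329 CPM there, against 15060.5 CPM in the 64 cells and at most 487 CPM in the other early prophase clusters. A further cluster stayed unnamed, with 228 and 408 cells. Its germ cell markers summed to 6771 and 7814 CPM, and its cells are left out of the germ-like shares and levels.

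Over the whole library, 669 of 15745 genes with at least 50 UMIs were higher at 14 dpp (4.25%) and 318 were lower (2.02%), while the median gene had a log2 ratio of −0.04. Of the higher genes 513 had their highest level in germ-like cells, and of the lower genes 17. The counting interval of the CPM ratio excluded no difference for all 669 and all 318. At this depth the 2-fold bound on CPM plus 1 already requires that, so it adds no support. At least 4-fold differences were found for 193 higher and 21 lower genes, and at least 16-fold differences for 20 higher and 1 lower gene. The 669 genes together went from 0.765% to 2.54% of all UMIs, and the 318 from 1.41% to 0.533%. Gene models without a proper name made up 23.9% of the higher genes, 5.35% of the lower genes and 10.6% of all genes tested. Long noncoding RNAs numbered 99 among the higher, 13 among the lower and 1162 among all tested. None of the 13 mitochondrial genes and 1 of 103 ribosomal protein genes was called. In such sums over a tissue, fewer cells of a type and less RNA per cell cannot be told apart.

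**Figure D1:**
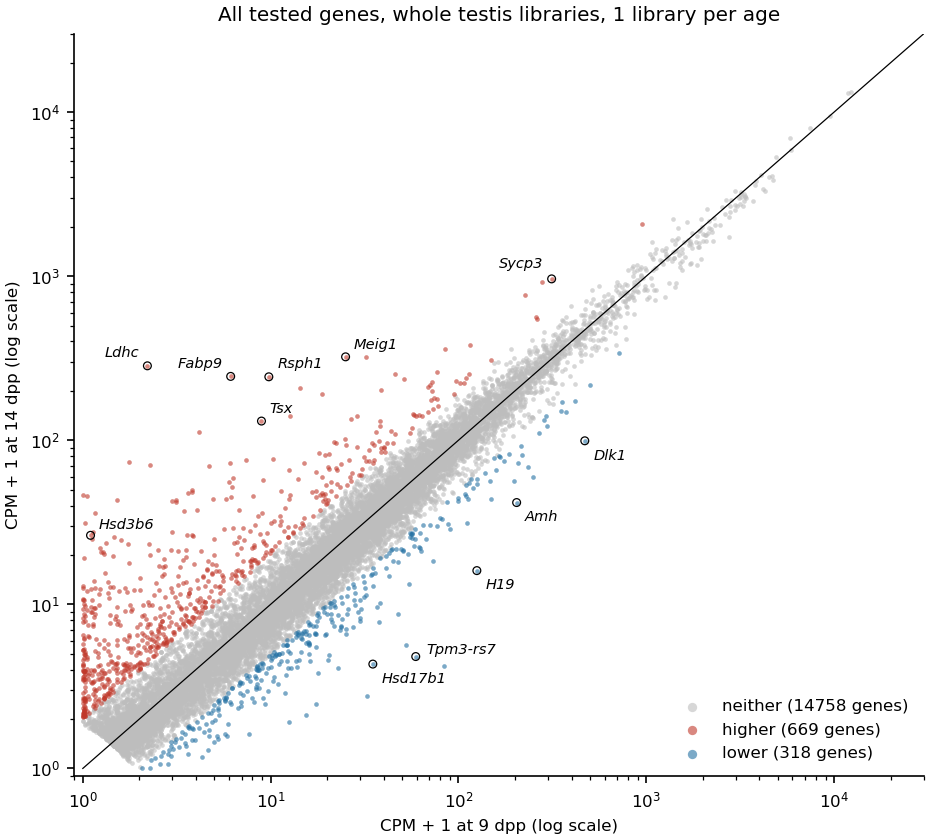
Each point is 1 of the 15745 genes tested, with CPM plus 1 at 9 dpp on the x axis and at 14 dpp on the y axis, both on log scales; the 669 genes at least 2-fold higher, the 318 lower and the others are coloured apart. The cloud lies on the diagonal, and the higher genes leave it mainly from the left edge, with Ldhc farthest (1.21 to 283 CPM).

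Ldhc, the lactate dehydrogenase subunit of spermatocytes and sperm, had the largest ratio (ENSMUSG00000030851, chr7:46861203-46878142, plus strand of GRCm38). It went from 73 UMIs, or 1.21 CPM (0.946 to 1.52), to 16441 UMIs, or 283 CPM (279 to 287), a log2 ratio of 7.01. The 64 pachytene-like cells held 78.5% of its 14 dpp UMIs. After thinning every cell to 2000 UMIs, which left out 95 and 275 shallower cells, 0.077% of cells at 9 dpp and 4.67% at 14 dpp had an Ldhc UMI; unthinned, the shares were 1.28% and 11.3%. Within the 14 dpp library 15.2% of Sertoli-like cells, which should lack Ldhc, also had a UMI of it, against 14.2% of germ-like cells, so no expression is read from the share of cells with a UMI.

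The other genes with the highest ratios were nearly all germ cell genes. Spata4, a gene named for spermatogenesis, went from 3 UMIs (0.0496 CPM) to 2615 UMIs (45.0 CPM), and the interval of its CPM ratio ran from 8.28 to 12.10 on the log2 scale. Pdcl2, a phosducin-like protein of male germ cells, went from 0.761 to 73.1 CPM. Fabp9, a fatty acid binding protein of the sperm head, went from 5.13 to 244 CPM, a log2 ratio of 5.32. These genes were rare or near the counting floor in the younger library and abundant in the older. Rsph1, a radial spoke protein of motile cilia and flagella, went from 8.78 to 243 CPM (4.64). Sertoli-like cells held 65.3% of its UMIs at 9 dpp, and germ-like cells 85.4% at 14 dpp. In Sertoli-like cells, leaving out a cluster with germ cell transcripts, Rsph1 also went from 22.8 to 86.5 CPM. Crisp2, a secretory protein of the acrosome and sperm tail, went from 8 to 1540 UMIs, and Adam2, a subunit of the sperm surface protein fertilin, from 1 to 1062 UMIs. The interval for Adam2 is wide, 7.63 to 15.42, because of its single UMI at 9 dpp. Fbp1, an enzyme of gluconeogenesis, went from 0.116 to 23.9 CPM, and Zmynd10, a factor for assembling ciliary dynein, from 0.331 to 22.8 CPM. The remaining germ cell genes among the 15 highest were Ldhal6b (4.96), Rbakdn (4.84), Gml (4.76), Kctd19 (4.16) and March11 (4.13). Hsd3b6 was the exception: this steroid dehydrogenase, known from adult Leydig cells, went from 6 UMIs (0.0992 CPM) to 1471 UMIs (25.3 CPM), a log2 ratio of 4.58. Its level in Leydig-like cells was 2.12 CPM at 9 dpp and 621 CPM at 14 dpp.

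At 9 dpp the 15 lowest genes had their highest level in somatic classes, though Tpm3-rs7 also stood at 48.8 CPM in germ-like cells. H19, an imprinted noncoding RNA of growing tissue, went from 124 CPM (121 to 127) to 15.1 CPM (14.1 to 16.1), a log2 ratio of −2.96. Dlk1, an imprinted membrane protein of immature cells, went from 469 to 98.2 CPM (−2.25). Both had their highest level in stromal- or myoid-like cells at either age, as had the secreted protein C1qtnf3 (46.6 to 7.71 CPM, −2.45) and the serine protease Htra3 (248 to 58.4 CPM, −2.07). Another set was highest in Sertoli-like cells. It holds Amh, the anti-Müllerian hormone (203 to 40.7 CPM, −2.29), Lgals7, a galectin (51.3 to 4.63 CPM, −3.21), and the beta-defensin Defb42 (11.5 to 0.930 CPM, −2.70). It also holds Ptgds, which makes prostaglandin D2 (21.7 to 3.10 CPM, −2.47), and Sel1l3 (19.3 to 3.55 CPM, −2.16). The sex steroid enzymes Hsd17b1 (34.0 to 3.32 CPM, −3.02) and Hsd17b3 (36.7 to 6.84 CPM, −2.27) were in this set too. Tubb2b, a beta tubulin, went from 16.9 to 2.79 CPM (−2.24), and Tmprss13, a membrane protease highest in Leydig-like cells, from 6.63 to 0.620 CPM (−2.24). Ifi204, an interferon-inducible gene, went from 31.6 to 1.77 CPM (−3.56). It belongs to a family of near copies, so reads could be split among them: Ifi203 stood at 2.74 and 2.38 CPM. Tpm3-rs7, a near copy of the tropomyosin gene Tpm3, had the lowest ratio when unnamed gene models are left out, from 58.2 to 3.81 CPM (−3.62); the model Gm10320 stood lower (−4.32), while Tpm3 itself stood at 118 and 119 CPM.

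**Figure D2:**
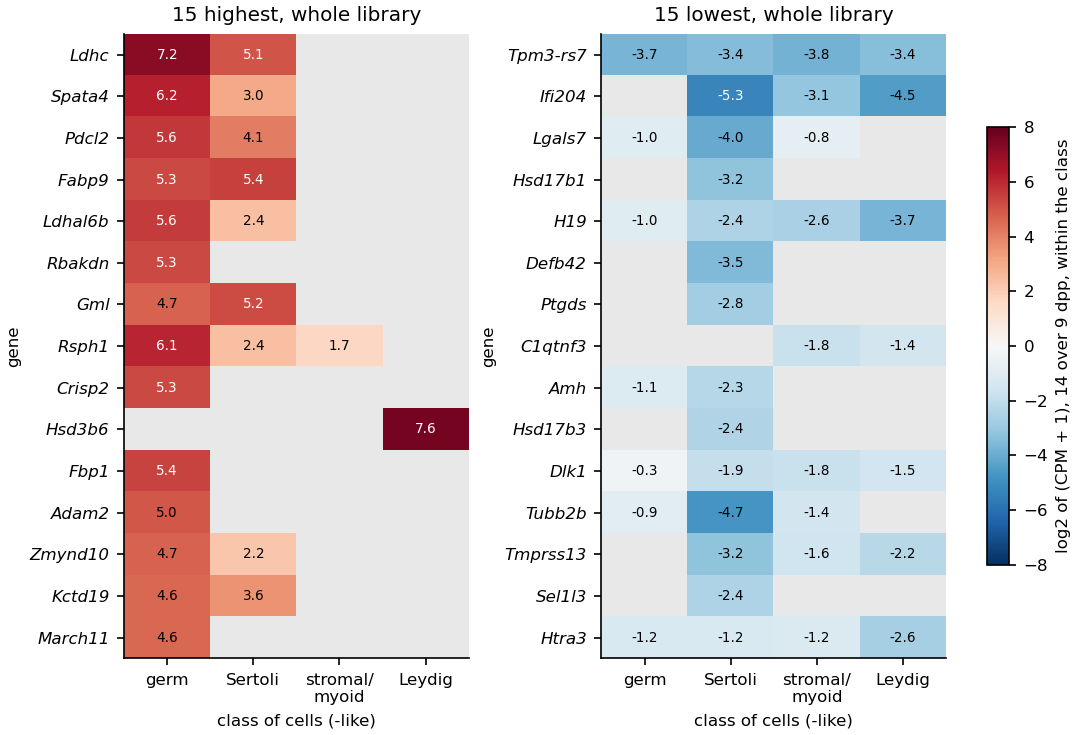
Colour gives the log2 ratio of CPM plus 1, 14 dpp over 9 dpp, within each of 4 cell classes (columns) for the 15 highest and 15 lowest genes of the whole library (rows); grey marks genes under 50 UMIs in the class. Most of the highest genes are counted in germ-like cells, Hsd3b6 in Leydig-like cells, and Tpm3-rs7 is low in all 4 columns.

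The called genes were then placed by the cell class in which their level was highest, in the library where they were higher. Germ-like cells had the highest level of 513 of the 669 higher genes (76.7%), against 36.6% of all genes tested, and Sertoli-like cells that of 93 (13.9%), against 14.7% of all. Of these 513, 480 were also called higher within germ-like cells, where 5.55% of all genes were, a count from the same cells that placed them. Among the 318 lower genes, the stromal- or myoid-like class had the highest level of 106 (33.3%, against 9.18% of all genes) and the Sertoli-like class that of 85 (26.7%, against 14.7%). Within their class, from the same cells that placed them, the counts were as follows: 84 of the 85 were also called lower within Sertoli-like cells (7.78% of all genes of the class), but 32 of the 106 within the stromal- or myoid-like class (3.03%), whose share of cells was lower at 14 dpp. The pachytene-like cells carried 20.8% of the 14 dpp UMIs of the 669 genes, and 250 of the 669 (37.4%) had most of their UMIs in these 64 cells, against 320 of all 15745 genes tested (2.03%). Without that cluster, 394 genes were higher, 384 of them among the 669. This count still holds the cluster of 180 early prophase cells that also had pachytene markers.

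The promoters of the genes were read from RefSeq on GRCm38.p6, 250 bases before to 50 bases after each start, for 11827 of the genes tested. Those shown belong to the gene with the highest ratio and to genes of early prophase, pachytene and the flagellum that hold a motif. The motifs searched on both strands were 3: the MYB core GGCAGTT, an E2F core TTCCCGC and the cAMP response element TGACGTCA. The letters of none contain those of another. A-MYB, encoded by Mybl1, is known as a regulator of pachytene transcription, and Mybl1 itself went from 3.99 to 18.9 CPM. Before the start of Tekt4, a tektin of the flagellum that was not past 2-fold in the whole library, the MYB core occurs 19 and 68 bases upstream (chr17:25471340-25471589, plus strand). Before Pgk2, the phosphoglycerate kinase of spermatocytes, which was not past 2-fold in the whole library (0.77), it begins 146 bases upstream (chr17:40208641-40208859, minus strand). The E2F core begins 48 bases before Smc1b, a cohesin subunit of meiosis (chr15:85131965-85132077, minus strand). It begins 147 bases before Sycp3, a component of the synaptonemal complex that joins paired chromosomes (chr10:88459337-88459568, plus strand), and 95 bases before Hormad1, a protein of unpaired chromosome axes (chr3:95559427-95559676, plus strand). Ldhc had none of the 3 in its window (chr7:46861013-46861202, plus strand). All distances are counted from the RefSeq start. The stretches below end where an annotated exon begins, which for Ldhc, Pgk2, Sycp3 and Smc1b lies 60, 31, 18 and 7 bases before that start. They run 5′ to 3′ along the gene and carry the motif in capitals.
Tekt4: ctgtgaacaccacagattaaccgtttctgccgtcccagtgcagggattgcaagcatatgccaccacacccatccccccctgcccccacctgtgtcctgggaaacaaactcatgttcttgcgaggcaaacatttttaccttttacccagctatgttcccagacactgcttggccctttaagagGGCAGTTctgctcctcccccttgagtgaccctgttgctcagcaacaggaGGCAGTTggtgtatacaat
Pgk2: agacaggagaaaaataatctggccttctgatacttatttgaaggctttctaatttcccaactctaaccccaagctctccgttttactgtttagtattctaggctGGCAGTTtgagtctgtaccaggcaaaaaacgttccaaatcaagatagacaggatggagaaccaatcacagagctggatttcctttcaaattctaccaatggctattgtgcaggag
Smc1b: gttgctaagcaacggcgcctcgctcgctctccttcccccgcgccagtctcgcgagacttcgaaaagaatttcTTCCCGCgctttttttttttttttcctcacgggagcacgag
Sycp3: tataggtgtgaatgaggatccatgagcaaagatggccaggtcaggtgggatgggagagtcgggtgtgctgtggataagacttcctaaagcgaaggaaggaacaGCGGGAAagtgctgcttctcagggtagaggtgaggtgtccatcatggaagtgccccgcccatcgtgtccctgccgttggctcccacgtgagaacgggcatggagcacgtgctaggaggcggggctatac
Hormad1: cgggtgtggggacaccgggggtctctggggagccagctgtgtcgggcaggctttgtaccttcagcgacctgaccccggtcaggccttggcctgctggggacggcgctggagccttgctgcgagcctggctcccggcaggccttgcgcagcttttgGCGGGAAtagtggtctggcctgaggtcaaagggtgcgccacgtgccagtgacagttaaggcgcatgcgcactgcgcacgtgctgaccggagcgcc
Ldhc: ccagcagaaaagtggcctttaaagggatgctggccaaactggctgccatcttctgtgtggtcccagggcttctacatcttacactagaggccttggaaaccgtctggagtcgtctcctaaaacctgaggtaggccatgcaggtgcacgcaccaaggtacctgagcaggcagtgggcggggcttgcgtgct

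Over whole promoters, the MYB core occurred in 3.79% of those of all genes tested, 9.14% of those of the higher genes and 3.58% of those of the lower genes. The share was 13.5% (28 of 207 promoters) for the higher genes with most of their 14 dpp UMIs in pachytene-like cells. The E2F core occurred in 7.86% of all, 8.45% of the higher and 3.58% of the lower, and in 13 of 30 promoters (43.3%) of the early meiotic prophase list used below. In the list of pachytene onset the MYB core occurred in 2 of 37 promoters (5.41%) and the E2F core in 1 of 37. In the cilium and flagellum list the MYB core occurred in 2 of 35 (5.71%), and in the early prophase list the MYB core occurred in 0 of 30. The cAMP response element occurred in 2.87%, 3.28% and 2.15% of all, higher and lower. These are counts of letters, not of bound sites.

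Genes of meiosis were next followed by their role, in lists given with their counts and medians beside the whole-library background (4.25% higher, 2.02% lower, median −0.04). Of 20 genes of undifferentiated spermatogonia, none was called and the median was −0.39. Utf1, a chromatin factor of spermatogonial stem cells, had the highest ratio (668 and 1044 UMIs, 0.66), and Nanos3, a germ cell RNA regulator, the lowest (1268 and 722 UMIs, −0.71). Within germ-like cells Utf1 had 542 and 291 UMIs (−0.95), and 69.4% of its 14 dpp UMIs lay in Sertoli-like cells, against 12.3% at 9 dpp. Of 16 genes of differentiating spermatogonia, 2 were higher: Tex101, a germ cell surface protein, went from 276 to 925 CPM, and the protease Prss50 from 112 to 253 CPM. Tex101 is also counted in the list of pachytene onset. Stra8, which retinoic acid induces at meiotic entry, stood at 338 and 410 CPM, a log2 ratio of 0.28. Within germ-like cells 1 of the 20 was lower (Ddit4, median of the list −0.59) and 1 of the 16 higher (Tex101, median −0.18). In these lists of the stages before meiosis, at most 2 genes passed the 2-fold bound.

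Of 34 genes of early meiotic prophase, 19 were higher and none lower, with a median of 1.06. Meiob, which binds single-stranded DNA at recombination sites, had the highest ratio, from 5.29 to 57.8 CPM (3.22). Meikin, a kinetochore protein of the first meiotic division, went from 0.397 to 7.65 CPM. Spo11, which makes the breaks that start recombination, went from 2.93 to 16.5 CPM. The axis and synaptonemal complex genes Sycp2 (37.5 to 201 CPM), Sycp1 (226 to 767 CPM), Syce3 (71.6 to 227 CPM) and Sycp3 (312 to 961 CPM) were all higher. The meiotic cohesins differed in size, with Smc1b at 262 and 548 CPM (1.06), Rad21l at 1.54 and 5.68 CPM and Rec8 at 15.4 and 17.0 CPM (0.14). Rec114 and Mei4, partners of Spo11 in break formation, had the lowest ratios, −0.10 and −0.04. Within germ-like cells, where 762 of 13719 genes were higher (5.55%) and 149 lower (1.09%), 14 of these 34 were higher and none lower, and the median was 0.86 against −0.06 for all genes of the class.

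Of 36 genes of pachytene onset, 27 were higher and none lower, and the median was 1.99. Without the pachytene-like cluster, but with the 180 early prophase cells that also had pachytene markers, 17 were higher, and the median was 0.98. After Ldhc, Fabp9, Crisp2 and Adam2 came Dkkl1, an acrosomal protein (3.69 to 68.4 CPM, 3.89), the centrin Cetn1 (2.79 to 49.0 CPM, 3.72) and Meig1, needed for the sperm flagellum (24.1 to 321 CPM, 3.68). Piwil1, the argonaute protein that binds pachytene piRNAs, went from 3.92 to 43.1 CPM, and 64.6% of its 14 dpp UMIs lay in pachytene-like cells. Hspa2, the chaperone of spermatocytes, went from 45.1 to 254 CPM. Acr, whose promoter drives the transgene, went from 4 UMIs (0.0661 CPM) to 313 UMIs (5.39 CPM). Ccna1, the meiotic cyclin A, and Aurka, a mitotic and meiotic kinase, had the lowest ratios, 0.00 and −0.01. The members that did not reach the minimum of 50 UMIs were Adam3, Spag6, Acrv1 and Ropn1. Within germ-like cells 28 of 35 were higher with a median of 2.28, and Ldhc stood there at 2.37 and 497 CPM.

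A share of the genes for building motile cilia and flagella was higher as well. Of 34 genes, 12 were higher and none lower in the whole library, and 18 were higher within germ-like cells, with medians of 0.75 and 1.12. The whole-library count was 6 without the pachytene-like cluster, 5 with 10 added to the CPM in place of 1, and 17 with 0.1 added. Rsph1 and Zmynd10 led, followed by Spag17, a protein of the central pair of microtubules (0.165 to 11.5 CPM, 3.42), and Cfap206, a radial spoke factor (1.50 to 20.3 CPM, 3.09). The tektin Tekt1 went from 1.95 to 20.3 CPM, and Tekt4, whose promoter is shown above, from 0.377 to 2.07 CPM within germ-like cells. The transcription factors of cilium genes differed, with Rfx2 at 2.13 and 7.35 CPM (1.42) and Rfx3 at 8.85 and 6.31 CPM (−0.43), both within germ-like cells. In the whole library, where neither was called, their log2 ratios were 0.89 and −0.35. Foxj1, Rsph4a, Akap4 and Akap3 did not reach the minimum of UMIs.

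The piRNA pathway and the testis histones gave fewer calls. Of 28 genes of the piRNA pathway and germ granules, Piwil1, Tex15 (96.1 to 229 CPM) and Tdrd6 (0.0827 to 1.17 CPM) were higher and none was lower, with a median of 0.28. Piwil1 is also counted in the pachytene list and Tex15 in the early prophase list. Piwil4, the fetal and spermatogonial argonaute, had the lowest ratio, 8.38 to 4.79 CPM (−0.70). Of 14 histone variant and chromatin genes, 3 were higher: the testis histones Hist1h2ba (0.810 to 4.15 CPM) and Hist1h2aa (7.13 to 21.4 CPM), and the bromodomain protein Brdt (32.5 to 74.0 CPM). None of the 14 was past 2-fold with 10 added to the CPM. Hist1h1t, the linker histone of spermatocytes, had 10 and 47 UMIs, a ratio of 0.63. Tnp1, a transition protein of spermatids, had the lowest ratio, with 346 and 206 UMIs. Within germ-like cells 3 of 13 were higher and none lower (median 0.33). These were Hist1h2ba, Hist1h2aa and H2afx, while Brdt was not called there.

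**Figure D3:**
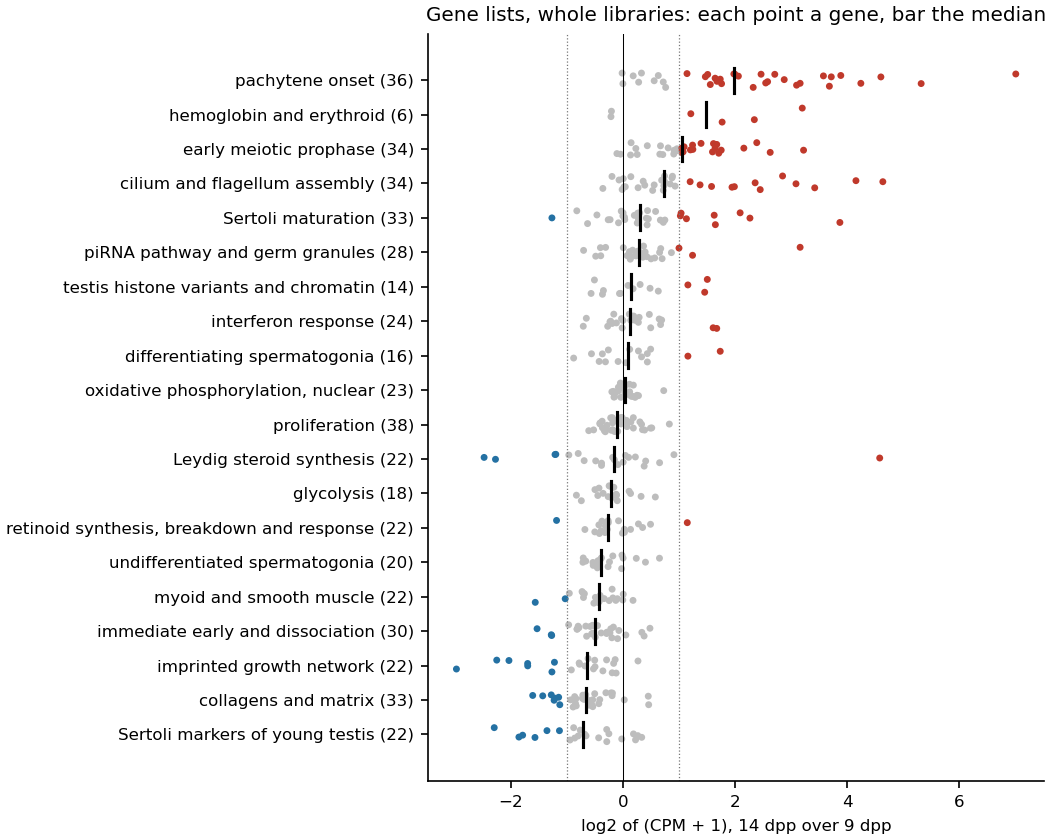
Each point is 1 gene of a list (rows), placed at its log2 ratio of CPM plus 1, 14 dpp over 9 dpp, in the whole library, with the list's median marked and dotted lines at the 2-fold bounds. The pachytene list has the highest median (1.99), and the young Sertoli cell list the lowest (−0.72).

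Many germ cell genes have a somatic relative with the same enzymatic or structural role, which allowed a comparison within pairs. In 29 of 30 pairs both genes reached the minimum, with the cohesin gene Rad21 standing in 2 of them. Which member counts as the germ cell one was set by the list of pairs, and some, such as Hsp90aa1 (1383 and 2234 CPM), were abundant at both ages. The germ cell member was higher in 12 pairs and lower in none, against 4.25% and 2.02% of all genes tested. No somatic member was called in either direction. The ratio of the germ cell member exceeded that of its somatic relative in 27 of the 29, the exceptions being Calr3 and Cstf2t, and the medians were 0.77 and −0.17. Ldha, the somatic lactate dehydrogenase subunit, stood at 151 and 129 CPM, beside 1.21 and 283 CPM for Ldhc. Hspa8 stood at 2129 and 1819 CPM beside 45.1 and 254 CPM for Hspa2. Cetn2, an X-linked centrin, stood at 98.2 and 90.2 CPM, and its autosomal relative Cetn1 at 2.79 and 49.0 CPM. The RNA-binding protein Ybx2 went from 5.04 to 71.2 CPM, while Ybx1 stood at 767 and 895 CPM. The mitochondrial Pdha2 (19.2 to 67.5 CPM), Cyct (33.8 to 95.6 CPM), Cox6b2 (63.0 to 140 CPM) and Cox7b2 (105 to 221 CPM) were all higher. Pgk2 was rare at both ages, with 10 and 57 UMIs, and Gapdhs had 5 and 1 UMIs and was not tested. The whole-library value of Ldha hides a difference within germ-like cells, where Ldha went from 555 to 2799 UMIs (2.15). Of all its 14 dpp UMIs 37.3% lay in germ-like cells, and 27.5% in the pachytene-like cells alone, a cluster absent at 9 dpp.

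**Figure D4:**
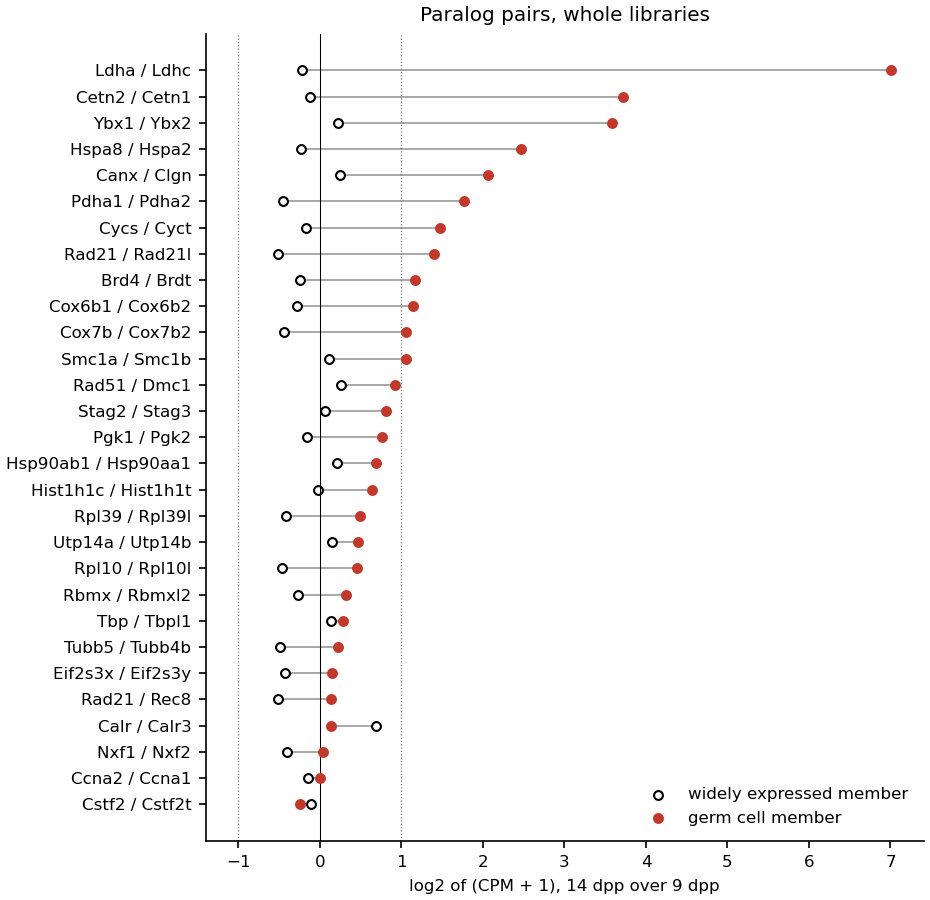
For each pair (rows), the open point gives the log2 ratio of CPM plus 1, 14 dpp over 9 dpp, of the somatic gene and the filled point that of its germ cell relative, joined by a line. The somatic points lie within the 2-fold bounds in every pair, and 12 germ cell points lie above the upper bound.

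By chromosome, the median log2 ratio was lowest among autosomes and the X for the X (−0.11, 609 genes, 61.4% of them below 0), and highest for chromosome 1 (0.01, but −0.01 with totals that leave out mitochondrial and ribosomal protein genes). The X median was −0.06 without the pachytene-like cluster, beside −0.04 for all genes. With each cell weighted equally it was −0.05, beside −0.02 for all genes. The Y had a median of −0.14 over 11 genes, which was 0.01 with each cell weighted equally. On the X, 32 genes were higher (5.25%) and 15 lower (2.46%), against 4.25% and 2.02% of all genes tested. The 3 highest X genes had their highest level in Sertoli-like cells: Tsx (7.94 to 130 CPM, 3.87), the connexin Gja6 (1.54 to 16.0 CPM, 2.75) and the homeobox gene Rhox5 (10.4 to 47.7 CPM, 2.09). The lowest were the membrane protein Itm2a (234 to 67.2 CPM, −1.79), the angiotensin receptor Agtr2 (8.14 to 1.70 CPM, −1.76) and the glypican Gpc3 (60.7 to 21.3 CPM, −1.47). Spermatocytes are known to silence the X and Y as a sex body from pachytene on, so the X share of UMIs was followed by stage. It is given as a description, as the stages were defined by clustering the same cells. In all kept cells the X held 3.46% of the UMIs of assigned genes at 9 dpp and 3.24% at 14 dpp. The share was 2.25% and 2.19% in undifferentiated and 2.36% and 2.36% in differentiating spermatogonia. In early prophase cells it was 3.50% at 9 dpp and 2.45% at 14 dpp, with cell medians of 3.50% and 3.17%. In the 64 pachytene-like cells of 14 dpp it was 0.150% (0.145% to 0.156%). Between them stood a cluster of 180 cells, found only at 14 dpp and assigned to early prophase, with 0.812%. Its Ldhc level was 1101 CPM, against 5788 CPM in the pachytene-like cells. In the other early prophase clusters the share ranged from 3.16% to 3.61% over both ages. The somatic classes stood higher, with 4.65% and 5.01% in Sertoli-like, 4.59% and 4.48% in stromal- or myoid-like, and 4.02% and 3.90% in Leydig-like cells.

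**Figure D5:**
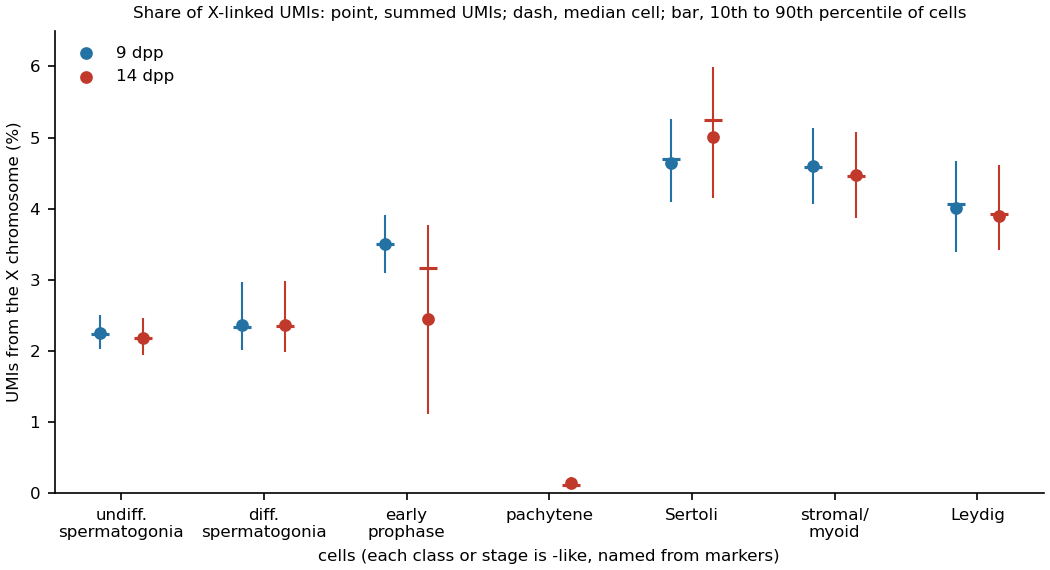
The percent of UMIs from X-linked genes is given on the y axis for each stage or cell class at 9 dpp (blue) and 14 dpp (red), as the share of summed UMIs (points), the median cell (dashes) and the range without the lowest and highest 10% of cells (bars). The pachytene-like cells, present at 14 dpp, stand at 0.150%, below every other group.

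Sertoli cells nurse the germ cells, and genes known from their young and maturing states were followed next. Of 22 genes known from young Sertoli cells, 6 were lower in the whole library and none higher, with a median of −0.72. Besides Amh these were the keratins Krt8 (3.99 to 0.448 CPM) and Krt18 (3.69 to 0.586 CPM), the transcription factor Gata4 (56.7 to 21.6 CPM) and the thyroid hormone receptor Thra (125 to 56.7 CPM). The sixth, the activin subunit Inhba (28.8 to 7.27 CPM), had 90.5% of its 9 dpp UMIs in stromal- or myoid-like cells and 12 and 6 UMIs in Sertoli-like cells. Of 33 genes of maturation, 8 were higher and 1 lower, with a median of 0.30. Tsx and Rhox5, given above, were joined by the water channel Aqp8, with 2 and 231 UMIs (interval of the CPM ratio 5.04 to 9.96, log2), and the dopamine receptor Drd4 (35.3 to 111 CPM). Also higher were Corin (0.298 to 1.67 CPM) and the beta-defensins Defb19 (945 to 2079 CPM) and Defb45 (17.3 to 36.4 CPM). The tight junction gene Cldn5 (248 to 873 UMIs) was the eighth, but 213 and 831 of its UMIs lay in endothelial-like and 2 and 4 in Sertoli-like cells. The lower member was Cdkn1c, a cell cycle inhibitor (3021 to 1176 UMIs), which within Sertoli-like cells had 29 and 31 UMIs.

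Within Sertoli-like cells 803 of 11677 genes were higher (6.88%) and 908 lower (7.78%), the highest shares of the classes. Different clusters held these cells at the 2 ages: 637 and 242 cells of 9 dpp in clusters that held 0 and 7 cells of 14 dpp, and 417, 338 and 319 cells of 14 dpp in clusters that held 0, 0 and 9 of 9 dpp. The cluster of 338 cells had 4589 CPM of summed germ cell markers and a median of 17506 UMIs. In all Sertoli-like cells the 10 germ cell markers summed to 432 CPM at 9 dpp and 2277 CPM at 14 dpp, the 10 early prophase markers to 243 and 1965 CPM, and 413 of the 803 higher genes had their highest 14 dpp level in germ-like cells. Their part in the result was not tested. Without the cluster of 338 cells, 463 of 11149 genes were higher (4.15%) and 1043 lower (9.36%), and 348 of the 803 were among the 463. Immediate early genes also moved with these values: 14 of 26 were lower and 1 higher within Sertoli-like cells, with a median of −1.24, and Cyr61 went from 400 to 20.4 CPM and Egr1 from 260.5 to 56.4 CPM. Within stromal- or myoid-like cells Cyr61 stood at 537 and 604 CPM.

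For several of the genes that peak in Sertoli-like cells and differed most, values with and without that cluster lay close together. Helt, a helix-loop-helix transcription factor, went from 2.30 to 64.6 CPM, or to 66.9 CPM without the cluster. Tsx went from 29.1 to 497 CPM, or to 585 CPM without it. Ppp2r2c, a subunit of protein phosphatase 2A, went from 6 to 339 UMIs, the carbonic anhydrase Car7 from 6 to 304 UMIs and Aqp8 from 2 to 214 UMIs. At the other end, Lgals7 went from 175 to 9.66 CPM, Hsd17b1, which makes estradiol, from 127 to 12.4 CPM, and Amh from 751 to 156 CPM. Without the cluster these stood at 8.71, 15.8 and 189 CPM at 14 dpp. Defb42 (42.8 to 2.78 CPM), Krt18 (161 to 4 UMIs) and the transcription factor Mafa (457 to 45 UMIs) were also among the lowest of these. Of the list of young Sertoli cells 6 of 19 were lower within the class and 1, the cell cycle inhibitor Cdkn1a, higher. Of the maturation list 9 of 31 were higher and 1 lower.

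In Leydig-like cells steroid genes differed in both directions. With a clustering resolution of 2 the class split by age, with 15 and 154 cells in one cluster and 87 and 0 in the other. Within the class 228 of 6724 genes were higher (3.39%) and 213 lower (3.17%). Of 19 genes of steroid synthesis 2 were higher and 5 lower, with a median of −0.29. The higher ones were Hsd3b6 (3 to 1227 UMIs, 2.12 to 621 CPM) and Srd5a1, which reduces testosterone (62.9 to 204 CPM). Among the lower ones were Cyp17a1, which makes androgens (4282 to 1409 CPM), Hsd3b1 (3958 to 1939 CPM), the peptide hormone Insl3 (1531 to 643 CPM) and the nuclear receptor Nr5a1 (230 to 92.1 CPM). Star, which carries cholesterol into mitochondria, stood at 764 and 845 CPM, and Cyp11a1, the first enzyme of the pathway, at 2952 and 2540 CPM. Other high genes that peak in the class were the metallothionein Mt3 (14.8 to 182 CPM), the potassium channel gene Kcnd2 (2 to 85 UMIs), the sphingosine kinase Sphk1 and the forkhead factor Foxa3 (each 6 to 68 UMIs). The lowest among genes that peak in the class were the hormone subunit Gpha2 (155 to 9.62 CPM), the chemokine Cxcl13 (49 to 4 UMIs), the peptidase Enpep (46 to 4 UMIs), the steroid hydroxylase Cyp21a1 (99.6 to 10.1 CPM) and Sh3tc1 (62.2 to 7.59 CPM). These values rest on 102 and 154 cells. In the whole library the list of 22 genes had 1 higher and 4 lower, and of these 4, Ptgds and Hsd17b3 had their highest level in Sertoli-like cells.

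In stromal- or myoid-like cells 199 of 10799 genes were higher (1.84%) and 327 lower (3.03%). Here too different clusters held the ages: 701, 654 and 141 cells of 9 dpp in clusters with 5, 19 and 20 cells of 14 dpp, and 605 and 429 cells of 14 dpp in clusters with 13 and 3 of 9 dpp. Collagens and matrix genes gave different counts in the tissue and in the class. In the whole library 7 of 33 were lower and none higher, with a median of −0.66, among them Thbs2 (11.4 to 3.07 CPM), Col6a2 (66.5 to 24.1 CPM) and Lum (27.3 to 10.7 CPM). Within the class 3 of 32 were lower, with a median of 0.01. Those 3 were the fibronectin gene Fn1 (140 to 49.6 CPM), Postn (30.8 to 4.23 CPM) and Thbs2 (65.6 to 31.7 CPM). The smooth muscle genes were similar, with 2 of 22 lower and a median of −0.43 in the whole library (Hhip, 1388 to 414 UMIs, and Smoc2, 163 to 79.6 CPM; neither with 10 added to the CPM) and 1 of 20 higher with a median of 0.36 within the class (Ckb, 148 to 319 CPM).

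Some imprinted growth genes were lower in the tissue and within the class. Of 22 in the whole library 7 were lower and none higher, with a median of −0.64, and 6 of 20 were lower within stromal- or myoid-like cells, with a median of −0.49. There H19 went from 677 to 113 CPM, Dlk1 from 2639 to 759 CPM, Nnat from 74.5 to 12.9 CPM and Mest from 265 to 89.4 CPM. The growth regulator Plagl1 went from 151 to 61.7 CPM and Cdkn1c from 185 to 68.9 CPM. Meg3, the noncoding neighbour of Dlk1, stood at 2035 and 1346 CPM (−0.60). Other low genes that peak in the class were Ifi204 (115 to 12.7 CPM), the relaxin receptor Rxfp1 (102 to 4 UMIs) and Cbln2 (69 to 2 UMIs). The highest of those that peak there were Ms4a4d (11.2 to 108 CPM), the retinol enzyme Lrat (14 to 74 UMIs), the heat shock gene Hspa1a (153 to 625 CPM), Hr (22 to 57 UMIs) and the hepcidin gene Hamp2 (21 to 53 UMIs).

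Cell division genes differed by class. Of 38 genes none was called in the whole library (median −0.10), and none within germ-like cells (median −0.16). Within Sertoli-like cells 12 were lower and 1 higher (median −0.61), with Aurkb, a kinase of mitosis, at 290 and 47 UMIs. Within stromal- or myoid-like cells 22 were lower and none higher (median −1.16), with Mki67, the proliferation antigen, at 48.0 and 18.6 CPM and Cdk1 at 117 and 49.0 CPM. The list was concentrated in the cluster of that class with 141 cells at 9 dpp and 20 at 14 dpp, where it summed to 14918 CPM, against at most 1029 CPM in its other clusters. Without that cluster, an alternative chosen after seeing the data, 2 of the 32 genes then tested were lower and none higher (median −0.34). Of all 10512 genes then tested 1.96% were lower, and Mki67 was at 5.83 and 7.18 CPM. Within Leydig-like cells 11 of 27 were higher and none lower (median 0.77), with Mki67 at 14 and 83 UMIs, spread over 102 and 154 cells. Germ cell markers also summed to more in the Leydig-like class at 14 dpp, with 67.8 and 264 CPM for the general list and 64.3 and 209.5 CPM for the early prophase list, and their part in the result was not tested. Differences between the classes were not tested.

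In pericyte-like cells 65 of 2541 genes were higher (2.56%) and 68 lower (2.68%). Racgap1 (179 to 55.7 CPM), Plk1 (117 to 37.2 CPM) and Tacc3 (165 to 53.1 CPM), all genes of mitosis, were among the 5 lowest genes that peak in the class, with Serinc3 and Ptn. The highest of these were 4 hemoglobin genes and Fry. Of the 2799 hemoglobin UMIs of this class at 14 dpp, 2791 came from 1 cell. In germ-like cells the lowest ratios among genes that peak there were those of Cpsf4l (6.38 to 1.07 CPM), Tmprss11a (66 and 0 UMIs), Skint2 (59 and 0 UMIs), the DNA repair gene Fancf (22.6 to 7.06 CPM) and the noncoding RNA Bc1 (88.3 to 30.5 CPM).

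Genes that differed the same way in all 4 larger classes were few. Of 6314 genes tested in each of the germ-like, Sertoli-like, stromal- or myoid-like and Leydig-like cells, 5 were higher in all: Sycp1, Sycp3, Tex101, Ly6k and Ccdc122, all highest in germ-like cells at 14 dpp. In Leydig-like cells Sycp3 stood at 3.53 and 44.0 CPM, beside 544 and 1323 CPM in germ-like cells. Lower in all were 6 genes, among them Alad, Gm10320, Gstp1, Htra3 and Tpm3-rs7. Gm10320 went from 72.7 to 3.27 CPM in germ-like and from 92.1 to 3.38 CPM in stromal- or myoid-like cells, and Tpm3-rs7 from 48.8 to 2.79 and from 69.2 to 4.01 CPM. Tpm3-rs7 is a near copy of another gene, so its counts are uncertain. What sets the lower values of these genes across classes was not tested.

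Blood and immune genes gave a few calls. The 4 hemoglobin genes were higher in the whole library, and summed to 81.6 CPM at 9 dpp and 273 CPM at 14 dpp. Cells with at least 100 such UMIs numbered 3 and 7, and held 82.3% and 93.1% of them. Over all deposited barcodes the sums were 1410 and 1131 CPM, so the direction rests on the cell filter. Of 24 interferon response genes 2 were higher and none lower, with a median of 0.13. These were the major histocompatibility genes H2-K1 (70.0 to 216 CPM) and H2-D1 (37.1 to 121 CPM). H2-K1 stood at 82.6 and 206 CPM in germ-like and 48.7 and 265 CPM in Sertoli-like cells. Of 22 retinoid genes Lrat (0.876 to 3.17 CPM) was higher and the retinol receptor Stra6 (24.5 to 10.3 CPM) lower. Of 30 immediate early and dissociation genes Egr1 (157 to 64.7 CPM), Ier2 (267 to 110 CPM) and Cyr61 (208 to 71.4 CPM) were lower. None of 23 nuclear oxidative phosphorylation genes (median 0.04) and none of 18 glycolysis genes (median −0.21) was called.

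The last comparison set these genes beside the 7-day and 2-day cultures, which share no library with the in vivo pair. Of 14526 genes with the minimum in both, 592 were higher in vivo and 706 were higher in culture, with 413 in both. That is 69.8% of the in vivo and 58.5% of the culture genes, against 4.86% of all genes that were higher in culture. Of 303 genes lower in vivo and 336 lower in culture, 52 were in both, or 17.2% and 15.5%, against 2.31% of all. Ldhc stood at 0.592 and 126 CPM in the cultures (6.32), Spata4 at 0.118 and 30.7 CPM, and Pdcl2 at 0.237 and 56.0 CPM. Of the genes higher in vivo 16 were lower in culture (2.70%, against 2.31% of all genes). Of those lower in vivo 5 were higher in culture (1.65%, against 4.86% of all).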

How the data were processed

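The data are single-cell UMI counts, deposited by the authors as 1 matrix of raw counts per library. They were made with Cell Ranger 3.0.2 on mm10, per the submitters' processing notes. Depth per library is given in the report. Here UMIs were summed over the kept cells, or over the cells of a class, and scaled to CPM. The minimum was 50 UMIs over both ages. Cells were clustered with scanpy 1.11.5 and leidenalg 0.10.2 (2000 variable genes, 30 components, 20 neighbours, resolution 1) after removing Scrublet calls from the classes. Clusters were named from at least 3 detected markers, and stromal and myoid clusters were merged after seeing the data. Pericyte-like cells are the smallest class compared (at least 50 cells an age). Named genes were the 15 highest and 15 lowest of the whole library, leaving out mitochondrial and ribosomal protein genes and unnamed models. They were also the 5 highest and 5 lowest of each class that peak in it, the 2 extreme members of each list and 3 at either end of the X. Some further list members, Ifi203, Tpm3, genes called in all 4 classes and values within classes were added after values were seen. The lists, and the comparison itself, were chosen with earlier results of these data known. Positions come from GENCODE M21 (GRCm38) by gene identifier and promoters from RefSeq. Scaling factors of edgeR 4.0.16 and DESeq2 1.42.0 served as alternatives, without their tests. The counting intervals were tested on simulated counts. Of the listed symbols 11 did not match the matrices. Other alternatives were the UMI minimum, the added constant, the cell filter, doublet calls, equal weight of cells and cluster resolution. The values of some list members are not reported here.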

Additional observations from a re-analysis of the deposited data

Results flagged for a closer look

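Genes that passed the 2-fold bound in opposite directions in vivo (14 dpp over 9 dpp) and in culture (7 days over 2 days) are given with the log2 ratio in culture first and in vivo second. The difference between the comparisons was not tested, as each age or culture time is 1 library. The first set below is 1.65% of the genes lower in vivo, where 4.86% of all genes were higher in culture. The second is 2.70% of those higher in vivo, where 2.31% of all were lower in culture. Lower in vivo and higher in culture were the macrophage receptor Marco (3.81 and −1.07), the lipase Lpl (1.81 and −1.90), Amh (1.57 and −2.29), Hsd17b1 (1.39 and −3.02) and the unnamed model Gm26825 (1.16 and −1.40). Amh stood at 7.69 and 24.8 CPM in the cultures and at 203 and 40.7 CPM in vivo, so the culture values lay below both in vivo values. Lower in culture and higher in vivo were the hemoglobin genes Hbb-bs (−5.96 and 1.77), Hba-a1 (−5.58 and 1.21), Hbb-bt (−2.44 and 2.35) and Hba-a2 (−2.25 and 3.20), whose in vivo values rest on a few cells. The same held for Lcn2 (−3.41 and 1.13), Ly6a (−3.13 and 1.40), Ly6d (−2.62 and 1.55), Ly6c1 (−2.02 and 1.30), Cd74 (−1.95 and 1.53) and Tmem255a (−1.85 and 1.07). It held too for Mustn1 (−1.72 and 1.12), Mrap (−1.60 and 2.47), H2-D1 (−1.50 and 1.68), Ms4a4d (−1.19 and 1.82), H2-K1 (−1.14 and 1.61) and Cyp2d22 (−1.01 and 1.55). Lcn2 went from 145 to 12.8 CPM in culture and from 0.215 to 1.65 CPM in vivo.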

How the results depend on the processing

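No paired analysis was possible because each group is 1 library. Of 30 named genes none changed direction in 13 settings, and 28 stayed past 2-fold in all; with 10 added to the CPM, Defb42 (−0.98) and Tmprss13 (−0.65) did not. Their sizes did vary: 88 of 390 values moved beyond the counting interval, and the ratio of Ldhc ran from 4.71 to 7.76, that of Spata4 from 2.45 to 8.24 and that of Adam2 from 1.50 to 7.30. No scaling moved the median of all genes by over 0.1. Of 110 counts of called genes under alternatives, 83 stayed within 1.5 times; the others follow, higher before lower. With 0.1 added to the CPM they were 1024 and 677 in the whole library, and 435 lower in germ-like cells. With 10 added they were 185 and 78 in the whole library, 263 and 20 in germ-like, 278 and 251 in Sertoli-like and 46 and 102 in the stromal- or myoid-like class, with 123 lower in Leydig-like cells. With a minimum of 1 UMI they were 368 and 503 in stromal- or myoid-like and 1341 and 1131 in Leydig-like cells. With a minimum of 200 UMIs they were 481 and 556 in Sertoli-like, 72 and 158 in stromal- or myoid-like, and 75 and 48 in Leydig-like cells, where fewer genes are tested. In germ-like cells 97 were lower with DESeq2 size factors and 240 with each cell weighted equally; the cause was not tested. Alternatives added after seeing the data left fewer cells: without the pachytene-like cluster 394 were higher in the whole library and 373 in germ-like cells, and without the cluster with germ cell transcripts 463 in Sertoli-like cells. The median of the hemoglobin list turned from 1.49 to −0.18 with all deposited barcodes. Over the alternatives the median of the pachytene list ran from 0.98 to 2.24 (17 to 29 higher), that of the cilium list from 0.25 to 1.04 (5 to 17) and that of the early prophase list from 0.70 to 1.20 (12 to 22). The lower genes numbered 4 to 10 in the young Sertoli list, 3 to 7 among collagens and 2 to 5 in the steroid list, 0 to 3 among smooth muscle genes, and the higher genes 4 to 8 in the Sertoli maturation list and 0 to 4 among histone and chromatin genes.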
